A study of Sus scrofa with 32 samples.

Results

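The genes SCD (ENSSSCG00000010554) and FASN (ENSSSCG00000029944) were followed in liver and fat tissue of pigs. They were chosen by their Ensembl identifiers as a pair of enzymes of fatty acid synthesis, and are 2 of the 31908 genes in the count tables. All animals were female Złotnicka White pigs, an indigenous Polish breed, sampled at 180 days after being kept under the same housing and feeding. In each tissue 8 libraries carried the label of high fat content and 8 the label of low fat content, written here as HFD (high fat deposition) and LFD (low fat deposition), and the names refer to the carcass and not to a diet. Nothing in the labels ties a liver library to a fat library of the same animal, and the tissues were compared as separate libraries. The second tissue is named there only as fat, without a depot.

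FASN encodes fatty acid synthase, the enzyme that builds palmitate from acetyl-CoA and malonyl-CoA with reducing power from NADPH. SCD encodes stearoyl-CoA desaturase, which places the first double bond into saturated acyl-CoA and so makes oleate and palmitoleate for storage lipids. Both genes are known targets of the transcription factor SREBP-1c and respond to insulin and feeding. In pigs adipose tissue is known as the main site of fatty acid synthesis, with the liver contributing little.

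RefSeq places SCD on the plus strand of chromosome 14 of Sscrofa11.1, the build named in the labels. A predicted transcript of 6 exons and 5961 bases starts at chr14:111461560, and the curated transcript of 5107 bases starts further downstream at chr14:111461808. FASN lies on the plus strand at chr12:922405-937560, in 43 exons that make a transcript of 8017 bases, of which 7533 are coding. Its annotated start lies only 13 bases before the start codon. The windows read here ran from 250 bases before to 50 bases after an annotated start, and were searched on both strands for CCAAT, the box bound by factor NF-Y, for TCACNCCAC, the letters of a sterol response element, and for TATAAA. The window of the predicted SCD start (chr14:111461310-111461609) held CCAAT at 99 and 56 bases before the start, and it is shown because it was the only 1 of the 3 windows of these genes with any of the searched letters. CCAAT occurred 2 times or more in 11% of the 19569 windows of the annotation, once or more in 35.4%, TCACNCCAC in 0.915% and TATAAA in 10.9%. The first line gives that window with CCAAT in capitals, and the second gives 60 bases around the start of FASN (chr12:922391-922450) with the start codon in capitals, both 5′ to 3′ from RefSeq.
SCD: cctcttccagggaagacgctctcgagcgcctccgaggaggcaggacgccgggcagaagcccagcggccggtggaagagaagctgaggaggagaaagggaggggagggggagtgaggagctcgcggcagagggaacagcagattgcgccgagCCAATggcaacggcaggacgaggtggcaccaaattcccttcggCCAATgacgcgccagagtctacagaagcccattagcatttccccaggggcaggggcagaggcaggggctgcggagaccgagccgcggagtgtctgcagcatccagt
FASN: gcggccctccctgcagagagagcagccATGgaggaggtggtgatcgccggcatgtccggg
The second sequence shows how little of the FASN leader the annotation holds, so the FASN window, though searched, may not lie at the promoter. A match of letters is a description of the window and not a binding site, and 0 matches say only that those letters are not in it.

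Liver libraries held 19837882 to 30457374 counts and fat libraries 9409976 to 19484621. A library stood apart in fat: in HFD replicate 2 80.9% of the counts fell on its 10 most counted genes (18.7% to 42.2% in the remaining 15), and its summed level of 6 adipocyte markers (ADIPOQ, PLIN1, LEP, FABP4, CIDEC and LPL) was 3784 CPM (counts scaled to a library total of 1000000) against at least 14782 in the others. In liver, LFD replicate 7 stood apart with 47.2%, against 21.3% to 26.8% elsewhere. The tissue labels were borne out by the markers: the adipocyte sum was 8.77 to 60.4 CPM in liver, and the sum of 7 hepatocyte markers was 81556 to 141754 in liver and 159 to 459 in fat. Levels are given below as percent of a library's counts or as CPM after TMM scaling, which corrects for the composition of each library within its tissue. Nothing says that these libraries are more than single extracts of single pigs, so p-values measure the spread between libraries.

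Both genes were among the most counted genes of fat and, as percent of counts, were lower in every liver library than in any fat library. In fat SCD took 0.299% of the counts in the lowest library, 2.71% in the median and 4.30% in the highest, and FASN took 0.616%, 2.15% and 4.68%. In liver the same values were 0.00959%, 0.0658% and 0.172% for SCD and 0.0260%, 0.111% and 0.394% for FASN. By these shares the lowest fat library was above the highest liver library by 1.74-fold for SCD and by 1.56-fold for FASN. TMM over all libraries, used in the fit below, lowered fat against liver. Whether every library stays separate under it was not tested. In the fat library with the highest sum, HFD replicate 5, the 2 genes together took 8.92% of all counts and FASN was the most counted gene. By mean log2 level SCD and FASN held ranks 5 and 4 among 13082 genes tested in fat, and ranks 193 and 107 among 13051 in liver. Since these are bulk tissues, fewer cells of a type and less RNA per cell cannot be told apart.

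In the fit of all 32 libraries SCD was 23.2-fold higher in fat than in liver (log2 fold change 4.54, SE 0.37, 95% interval 3.78 to 5.30, adjusted p = 4.19e-13 from edgeR's quasi-likelihood test). FASN was 13.9-fold higher (log2 fold change 3.79, SE 0.33, 95% interval 3.12 to 4.46, adjusted p = 1.81e-12). Both passed the threshold of 0.05 on the adjusted p, in a comparison where 79.4% of 14324 genes did so, 38.5% with a higher level in fat (80.3% had an unadjusted p under 0.05). Without fat HFD replicate 2 the log2 fold changes were 4.62 and 3.74. Scaling to total counts in place of TMM gave 5.20 and 4.34, and it moved the median of all genes from -0.02 to 0.64 in the same direction. The adipocyte marker sum in the liver libraries was at most 0.321% of the median in fat, in liver HFD replicate 2, and its part in the liver levels of SCD and FASN was not tested. Liver and fat columns carry different marks in their names. Tissue and any batch behind those marks cannot be told apart, here or in the ratio between tissues.

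**Figure D1:**
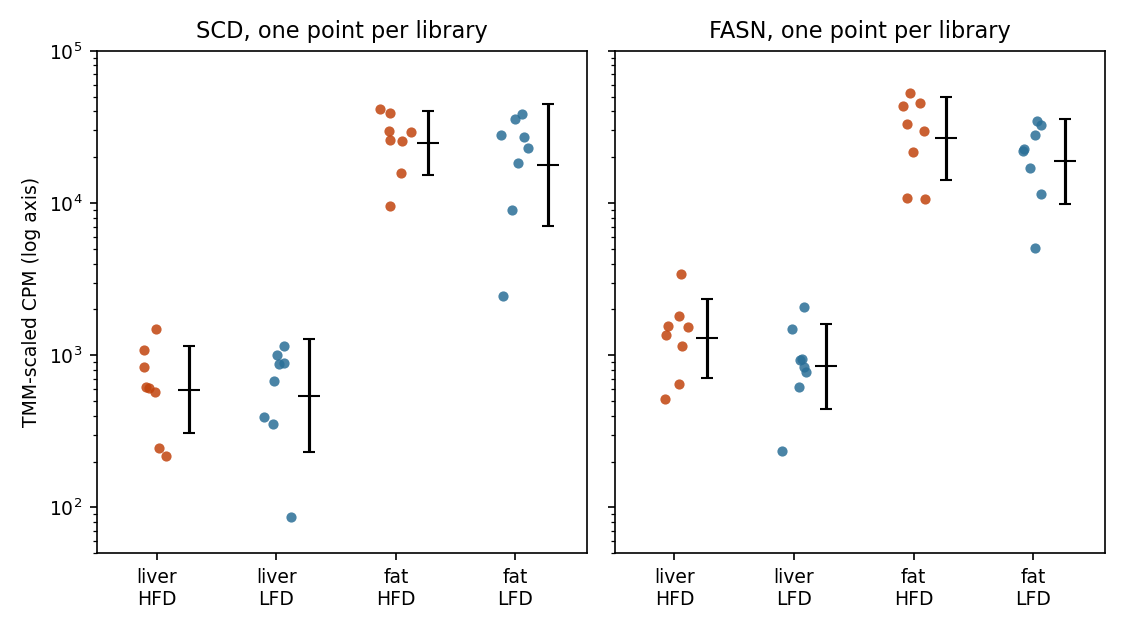
Level of SCD (left) and FASN (right) in TMM-scaled CPM on a log axis, one point per library, in the HFD and LFD groups of liver and fat, scaled within each tissue. Black bars give the mean and SD of the 8 log2 values of a group, drawn back on the axis. Liver libraries lie between 86.7 and 1482 for SCD and between 235 and 3405 for FASN, all below the fat libraries, and the HFD and LFD points overlap in each tissue.

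With RefSeq transcript lengths, the order of the genes per length differed between the tissues. Using the 5961-base SCD and 8017-base FASN transcripts, the ratio of SCD to FASN per kilobase had a median of 1.28 in fat, with SCD above FASN in 14 of 16 libraries. In liver the median was 0.644, with SCD above FASN in 3 of 16. The shorter curated SCD transcript would raise every one of these ratios by the same factor. The gene models behind the counts may have other lengths, so the order within a tissue rests on the lengths used. By counts alone SCD lay above FASN in 7 of 16 fat and 2 of 16 liver libraries. The counts themselves gave the test. Transcript length cancels there if both tissues use the same transcripts, which was not tested. The log2 ratio of SCD to FASN counts averaged -0.10 ± 0.64 (SD, n = 16) in fat and -0.88 ± 0.55 (SD, n = 16) in liver. The difference of 0.79 (SE 0.21), a 1.72-fold higher ratio in fat, had a two-sided permutation p of 0.001 (adjusted p = 0.003 over 3 comparisons of the ratio), and leaving out fat HFD replicate 2 gave 0.90.

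The question within each tissue was whether pigs with more fat carried more SCD and FASN mRNA. In liver SCD reached 218.5 CPM in the lowest, 612 in the median and 1482 in the highest HFD library, and 86.7, 774 and 1150 in the LFD libraries. The groups overlapped almost over their whole range, and the median was higher in LFD. The log2 fold change of HFD over LFD was 0.06 (SE 0.46, 95% interval -0.92 to 1.05, adjusted p = 0.987 from edgeR), so changes to between 0.53-fold and 2.06-fold lie within the interval. Its direction rested on single libraries: it was between -0.18 and -0.02 when HFD replicate 1 or 7 or LFD replicate 2, 3 or 8 was left out.

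FASN in liver reached 512, 1452 and 3405 CPM (lowest, median and highest) in HFD and 235, 883 and 2087 CPM in LFD. The highest HFD library, replicate 7, lay well above the rest, and the other 7 HFD libraries fell inside the LFD range. The log2 fold change was 0.60 (SE 0.40, 95% interval -0.25 to 1.45, adjusted p = 0.856 from edgeR), or 1.52-fold with an interval of 0.84 to 2.73. It was 0.31 without HFD replicate 7 and 0.85 without LFD replicate 1. The background of this comparison was 0% of 13051 genes called by edgeR, with 5.78% (754 genes) at an unadjusted p under 0.05, and neither gene was among the latter. DESeq2 called 5 genes and limma-voom 1, and the adjusted p of SCD and FASN was at least 0.694 under every alternative run.

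In fat SCD reached 9600, 27486 and 41224 CPM (lowest, median and highest) in HFD and 2450, 25055 and 38353 CPM in LFD. The lowest value belonged to LFD replicate 8, and the other 7 LFD libraries spanned nearly the same range as the HFD group. The log2 fold change was 0.25 (SE 0.43, 95% interval -0.65 to 1.15, adjusted p = 0.954 from edgeR), or 1.19-fold with an interval of 0.64 to 2.21. It was 0.08 without LFD replicate 8 and 0.33 without HFD replicate 2.

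FASN in fat reached 10623, 31534 and 53024 CPM (lowest, median and highest) in HFD and 5043, 22295 and 34420 CPM in LFD. The highest value was that of HFD replicate 2, where FASN took 1.69% of the counts, below the median of the fat libraries, and the TMM factor of 0.319 for this library raised its scaled level. The log2 fold change was 0.52 (SE 0.40, 95% interval -0.33 to 1.37, adjusted p = 0.898 from edgeR), or 1.43-fold with an interval of 0.80 to 2.58. Without HFD replicate 2 it was 0.36, and under total count scaling 0.30. Here too edgeR called 0% of 13082 genes, with 6.65% (870 genes) at an unadjusted p under 0.05 and neither SCD nor FASN among them, while DESeq2 called 50 genes and limma-voom 1.

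Markers of other cells were compared between the groups, and 0 passed the adjusted threshold in either tissue. At an unadjusted p under 0.05 from edgeR stood 6.65% of all genes tested in fat and 5.78% in liver. In fat all 5 hepatocyte markers tested had positive log2 fold changes with a median of 1.49, 3 of them at an unadjusted p under 0.05. Their smallest adjusted p was 0.628 in edgeR, and the sum of all 7 hepatocyte markers was at most 459 CPM before scaling. All 4 leukocyte markers tested in fat were positive too, with a median of 0.53, of which CD68 had the smallest p (log2 fold change 0.67, SE 0.28, unadjusted p = 0.0254, adjusted p = 0.655), and in liver 1 of 4 was positive. In liver all 4 adipocyte markers tested had positive values with a median of 1.06, of which FABP4 and LPL had unadjusted p-values of 0.0109 and 0.0103 and adjusted p-values of 0.834. The sum of all 6 adipocyte markers was high in HFD replicates 2 and 7 (60.4 and 28.1 CPM), replicate 7 being the library with the highest FASN. The other HFD livers (8.77 to 16.2 CPM) lay where the LFD livers did (9.35 to 16.5 CPM). The part of all these markers in the SCD and FASN values was not tested.

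The effect of fat group was also compared between tissues. The log2 difference between the HFD over LFD change in fat and that in liver was 0.19 for SCD (SE 0.64, 95% interval -1.12 to 1.496, adjusted p = 0.999) and -0.07 for FASN (SE 0.59, 95% interval -1.27 to 1.14, adjusted p = 1.000), both from edgeR. Neither direction was stable: under total count scaling SCD gave -0.03, and FASN gave values from 0.04 to 0.20 when liver HFD replicate 7, liver LFD replicate 8, or fat HFD replicate 7 or 8 or fat LFD replicate 3 or 6 was left out. For this difference edgeR called 0% of 14324 genes, 6.26% (896 genes) had an unadjusted p under 0.05, and DESeq2 called 40 genes.

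Both genes spread widely within the groups. The SD of the log2 level within groups was 1.10 for SCD and 0.89 for FASN in liver, where the median over all genes tested was 0.295, and placed them at percentiles 98.0 and 96.2. In fat it was 1.06 and 0.91 against a median of 0.414, at percentiles 94.4 and 91.4. Among the tenth of genes with the highest mean level the percentiles were 98.1 and 97.2 in liver and 98.4 and 96.2 in fat. The pig with the highest liver level exceeded the lowest by 17.1-fold for SCD and 14.5-fold for FASN, and in fat by 16.8-fold and 10.5-fold. Some listed genes of the pathway had about as large an SE of the HFD over LFD log2 fold change in fat. It was 0.60 for ACLY, 0.46 for ME1 and 0.42 for ACACA, against 0.43 for SCD and 0.40 for FASN. Most listed genes had a smaller SE there, such as 0.18 for IDH1 and 0.15 for GPAM. In liver the SE was 0.16 for ACLY, 0.29 for ME1 and 0.26 for ACACA, but 0.55 for THRSP. For SCD and FASN it was 0.46 and 0.40 in liver. Repeat sequencing hardly moved these levels: between the 2 runs of a liver library they differed by at most 0.132 for SCD and 0.0967 for FASN on the log2 scale. The extremes were often the same libraries for both genes. Liver LFD replicate 8 was lowest and liver HFD replicate 7 highest for both, and fat LFD replicate 8 was lowest for both.

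SCD and FASN rose and fell together across the libraries of each tissue. In liver the correlation of log2 TMM CPM was r = 0.857 over 16 libraries (permutation p = 6e-05, adjusted 0.00012 over the 2 tissues), with Spearman's rho = 0.747 (permutation p = 0.00132, adjusted 0.00264). Leaving out the libraries farthest from the SCD median, HFD replicate 3 and LFD replicate 8, left r = 0.689 (permutation p = 0.00596). Within HFD livers r was 0.976 (n = 8, exact permutation p = 7.44e-05, adjusted 0.000298 over the 4 groups). Within LFD livers r was 0.835 (n = 8, exact permutation p = 0.0175, adjusted 0.0233), but rho was 0.548 (n = 8, exact permutation p = 0.171).

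In fat r was 0.795 over 16 libraries (permutation p = 0.00058, adjusted 0.00058) and rho 0.691 (permutation p = 0.00416, adjusted 0.00416). Here the relation leaned on a few libraries: without LFD replicates 7 and 8, the farthest from the SCD median, r was 0.533 (permutation p = 0.049). HFD replicate 2 pulled the other way, and without it r was 0.898. Within LFD fat r was 0.979 (n = 8, exact permutation p = 0.000422, adjusted 0.000843), whereas within HFD fat, which holds replicate 2, r was 0.5004 (n = 8, exact permutation p = 0.197). Depth, scaling and composition are shared by the 2 genes in a library, and in fat they are themselves among its most counted genes.

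**Figure D2:**
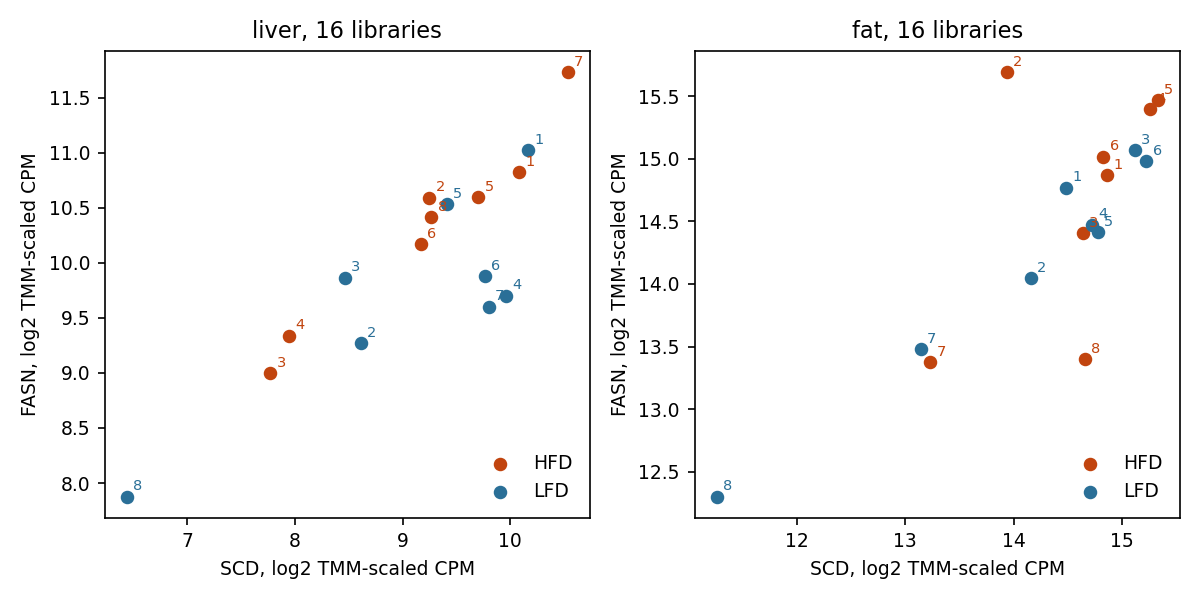
FASN against SCD, both in log2 TMM-scaled CPM, in liver (left) and fat (right), one point per library with its replicate number, coloured by fat group. Points follow a rising line in both tissues (r = 0.857 and 0.795), with LFD replicate 8 at the bottom of each panel, and fat HFD replicates 2 and 8 lie off the line on opposite sides.

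To place these values among all pairings, FASN held rank 13 among the 13050 other genes by r with SCD in liver, and SCD held rank 4 by r with FASN. The median r over all genes was -0.02 with SCD and -0.01 with FASN. In fat FASN held rank 101 of 13081 by r with SCD and SCD rank 157 by r with FASN, and these were 17 and 64 without HFD replicate 2.

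The ratio of SCD to FASN counts within a library removes the shared part. In HFD livers its log2 value averaged -1.12 ± 0.22 (SD, n = 8) and ran from -1.39 through a median of -1.17 to -0.74. In LFD livers it averaged -0.64 ± 0.69 (SD, n = 8) and ran from -1.44 through -0.76 to 0.26. No HFD liver held more SCD than FASN counts, while LFD replicates 4 and 7 did, and the LFD range covered the HFD range. The difference of -0.48 (SE 0.26) had an exact two-sided permutation p of 0.0911 (adjusted 0.137 over 3 comparisons), and when single livers were left out the p ran from 0.0343 (without LFD replicate 8) and 0.0373 (without LFD replicate 3) to 0.178 (without LFD replicate 4). In the HFD fat libraries the ratio averaged -0.11 ± 0.82 (SD, n = 8), and the LFD fat libraries averaged -0.08 ± 0.46 (SD, n = 8), a difference of -0.03 (SE 0.33, exact permutation p = 0.938). That difference became 0.20 without HFD replicate 2, which had the lowest ratio, -1.76, and was -0.23 without HFD replicate 8, which had the highest, 1.26.

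**Figure D3:**
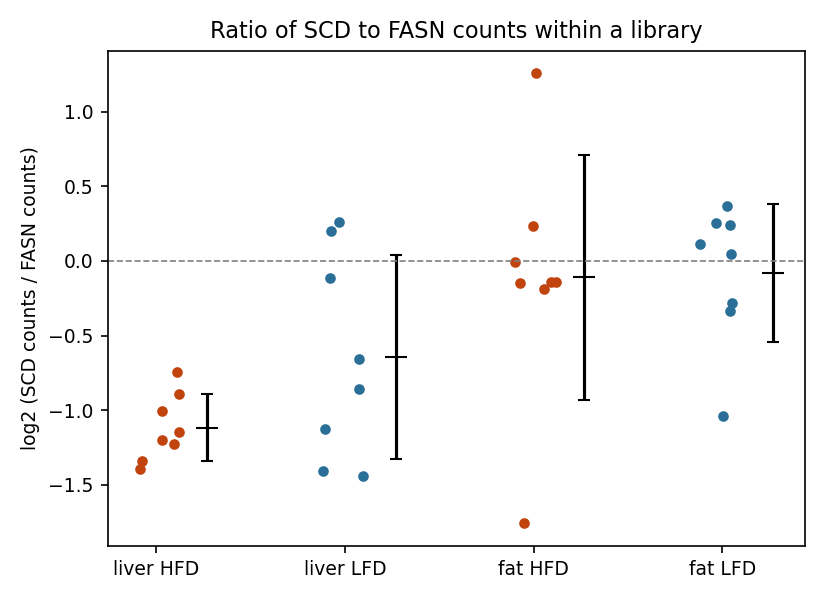
Log2 of SCD counts over FASN counts in each library, one point per library, by tissue and fat group, with the mean and SD of the 8 libraries in black. The dashed line marks equal counts. The HFD livers lie together between -1.39 and -0.74, the LFD livers spread from -1.44 to 0.26, and most fat libraries scatter around 0, with HFD replicate 2 (-1.76) and LFD replicate 8 (-1.04) far below and HFD replicate 8 (1.26) far above.

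The genes most like each enzyme were taken as the 3 with the highest r over the 16 libraries of a tissue. They are given as a description of these libraries, without a test. For SCD in liver they were LSS (r = 0.931) and EBP (r = 0.923), which act in cholesterol synthesis, and THRSP (r = 0.922), the Spot 14 gene linked to lipogenesis. For FASN in liver they were ACACA (r = 0.914), the acetyl-CoA carboxylase that makes its substrate malonyl-CoA, the tight junction gene TJP3 (r = 0.887) and the lipid droplet gene PNPLA3 (r = 0.863).

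In fat the genes most like SCD were the proteasome subunit gene PSMD2 (r = 0.944), the elongase gene ELOVL6 (r = 0.941), whose product feeds stearoyl-CoA to SCD, and ACSS2 (r = 0.919), which makes acetyl-CoA from acetate. Those most like FASN in fat were ACACA (r = 0.982), AP2B1 (r = 0.970), a subunit of a clathrin adaptor, and CLPTM1 (r = 0.939). ACACA was thus the nearest to FASN in both tissues over all 16 libraries of each. Without liver LFD replicate 7, TJP3 (r = 0.922) came above ACACA (r = 0.913) in liver. In the Sscrofa11.1 annotation ACACA (chr12:38580916-38875067) and AP2B1 (chr12:39803105-39940801) lie on chromosome 12, as FASN does. The others most like FASN lie elsewhere, CLPTM1 on chromosome 6, TJP3 on 2 and PNPLA3 on 5. The part of position was not tested. Without HFD replicate 2 the r of ACACA and AP2B1 with FASN in fat was 0.980 and 0.968.

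A list of 29 other genes of fatty acid and triglyceride synthesis was set beside the enzymes, 28 of which had a row in the tables, ACACB being without one. In liver 5 of the 26 tested had r over 0.7 with SCD and 6 of 26 with FASN, where 1.01% and 0.751% of all genes did, and the list median was 0.370 and 0.317. In fat 12 of 28 had r over 0.7 with SCD and 12 of 28 with FASN, where 2.49% and 3.00% of all genes did, with list medians of 0.562 and 0.583. Without fat HFD replicate 2 the counts in fat were 13 and 15. The adipocyte markers in fat were mixed: 2 of 6 had r over 0.7 with each enzyme, and 4 of 6 without HFD replicate 2, but ADIPOQ had r = -0.450 with SCD and -0.493 with FASN, and FABP4 had 0.054 and -0.353. By comparison, the 7 hepatocyte markers in liver had r from -0.424 to 0.249 with SCD and from -0.503 to 0.228 with FASN. The part of the adipocyte markers in the fat correlations was not tested.

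By role, the carboxylase ACACA and the citrate lyase ACLY, which makes acetyl-CoA from citrate, followed FASN in fat (r = 0.982 and 0.920) and less closely SCD (r = 0.836 and 0.871). Among the NADPH suppliers PGD followed both enzymes in liver (r = 0.833 with SCD and 0.822 with FASN). ME1 followed both in fat (r = 0.867 with SCD and 0.815 with FASN) and had r of 0.671 and 0.434 in liver. The desaturases FADS1 and FADS2, which act on polyunsaturated chains, had r between 0.153 and 0.359 in liver and between -0.446 and 0.123 in fat. Of the genes of triglyceride assembly GPAM went with SCD in liver (r = 0.870) but not closely in fat (r = 0.279), where it had r = 0.560 with FASN. DGAT2 showed the opposite order with SCD (r = 0.165 in liver and 0.827 in fat). The others varied in their r with SCD in liver and fat. LPIN1 had -0.455 and -0.320, ACSL1 0.516 and 0.754, DGAT1 0.381 and 0.393, and AGPAT2 0.283 and 0.289.

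The regulators SREBF1, which encodes SREBP-1 and is known to drive lipogenic genes, and SREBF2, which encodes SREBP-2 and is known to drive cholesterol synthesis, stood in opposite order in liver and fat. In liver SREBF2 had r = 0.891 with SCD and 0.825 with FASN, and SREBF1 had r = 0.120 and 0.119. In fat SREBF1 had r = 0.880 with SCD and 0.872 with FASN, and SREBF2 had r = -0.093 and 0.228. Leaving out each library in turn kept SREBF2 in liver at 0.727 or above and SREBF1 in liver at 0.194 or below, for both enzymes. In fat it kept SREBF1 at 0.793 or above and SREBF2 at 0.310 or below. The SREBF1 row covers every isoform of the gene, so SREBP-1c itself was not separated. SREBF1 ran from 76.9 to 538 CPM in liver and from 89.8 to 425 CPM in fat, and SREBF2 from 84.8 to 185 CPM and from 29.97 to 77.3 CPM. These are correlations over 16 libraries of each tissue that share depth and scaling, and the difference between the tissues was not tested.

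**Figure D4:**
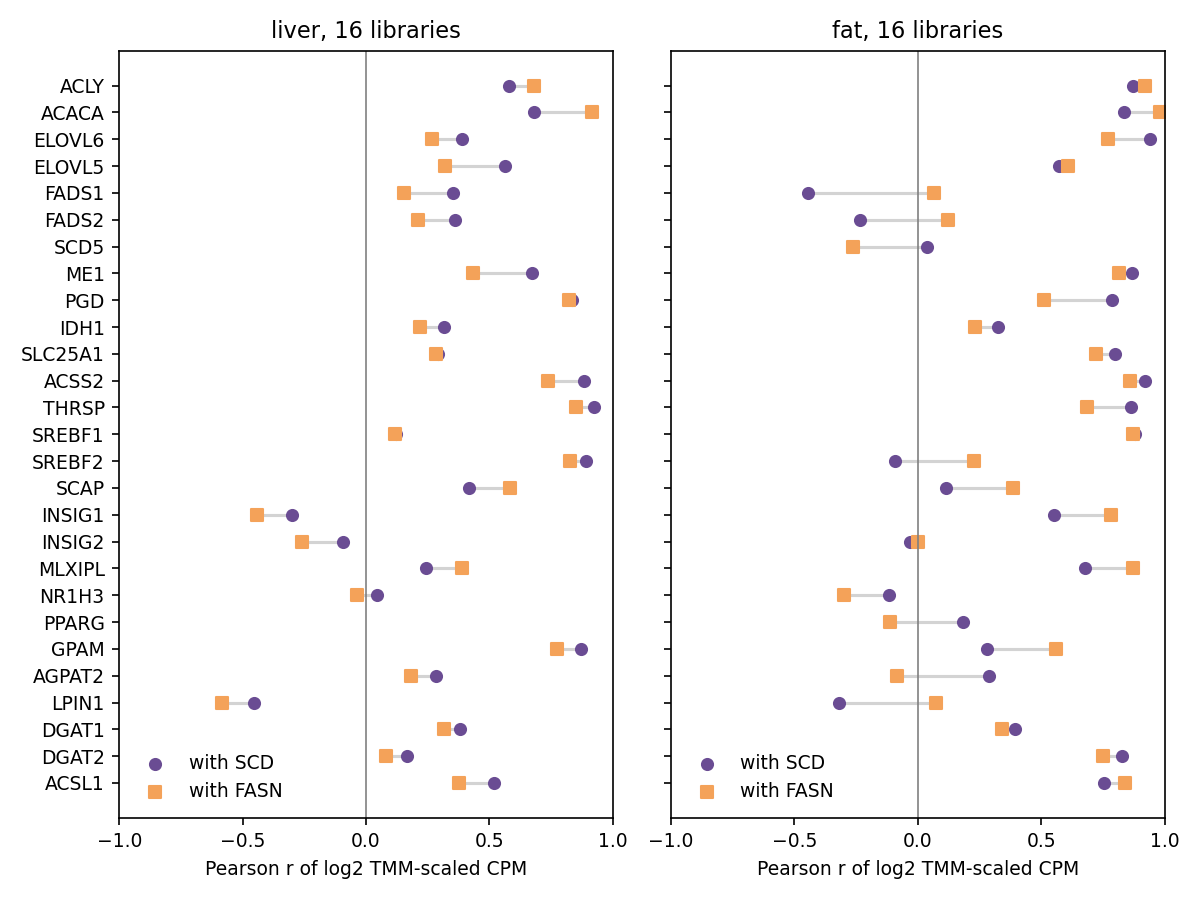
Pearson r of listed genes of fatty acid and triglyceride synthesis with SCD (circles) and with FASN (squares) over the 16 libraries of liver (left) and of fat (right), in log2 TMM-scaled CPM. SREBF2, GPAM and THRSP lie far to the right in liver, SREBF1, ACACA, ACLY and ELOVL6 in fat, and SCD5 and PPARG have no value in liver because they were too low to be tested.

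The listed genes of the pathway were compared between the tissues as background for the enzymes. Of the 28 tested, 15 were higher in fat, where 38.5% of all genes were, and 10 lower, where 40.9% were, with a list median of 0.68 against -0.02 for all genes. Among the suppliers of NADPH, ME1 (log2 fold change 6.39), PGD (2.74) and IDH1 (0.72) were higher in fat, as were ACLY (5.89), SLC25A1 (1.504) and ACACA (2.59). Of the chain-modifying enzymes ELOVL6 (3.602), ELOVL5 (1.98) and SCD5 (2.45), a second desaturase of the SCD kind, were higher in fat, and FADS1 (-5.17) and FADS2 (-4.71) lower. Among the 9 regulators PPARG (8.98) and THRSP (3.34) were higher and 5, SREBF2 (-2.22) and INSIG1 (-2.12) among them, lower. SREBF1 had a log2 fold change of -0.02 (adjusted p = 0.937 from edgeR), and 0.59 under total count scaling (adjusted p = 0.0145). Scaling to total counts gave 18 higher and 9 lower, and SREBF1 and ACSL1 (-0.50 with TMM, 0.14 with total counts) were the genes of the list whose sign it turned.

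Between HFD and LFD the listed genes gave no call either. In liver 0 of 26 passed in edgeR, 13 had a positive and 13 a negative log2 fold change, and the median was -0.01 against 0.00 for all genes. The carbohydrate response factor gene MLXIPL was the only one of the 26 at an unadjusted p under 0.05 from edgeR, as were 5.78% of all genes tested. Its log2 fold change was 0.24 (SE 0.12, adjusted p = 0.839 from edgeR), and ACACA had 0.46 (95% interval -0.08 to 1.00). In fat 0 of 28 passed, 17 were positive and 11 negative, the median was 0.08 against 0.02 for all genes, and ACACA had 0.48 (95% interval -0.40 to 1.36). Under total count scaling 20 of 26 were positive in liver and 12 of 28 in fat, with the median of all genes at 0.10 and -0.10. The number that passed was 0 in each tissue under every alternative run on the list.

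**Figure D5:**
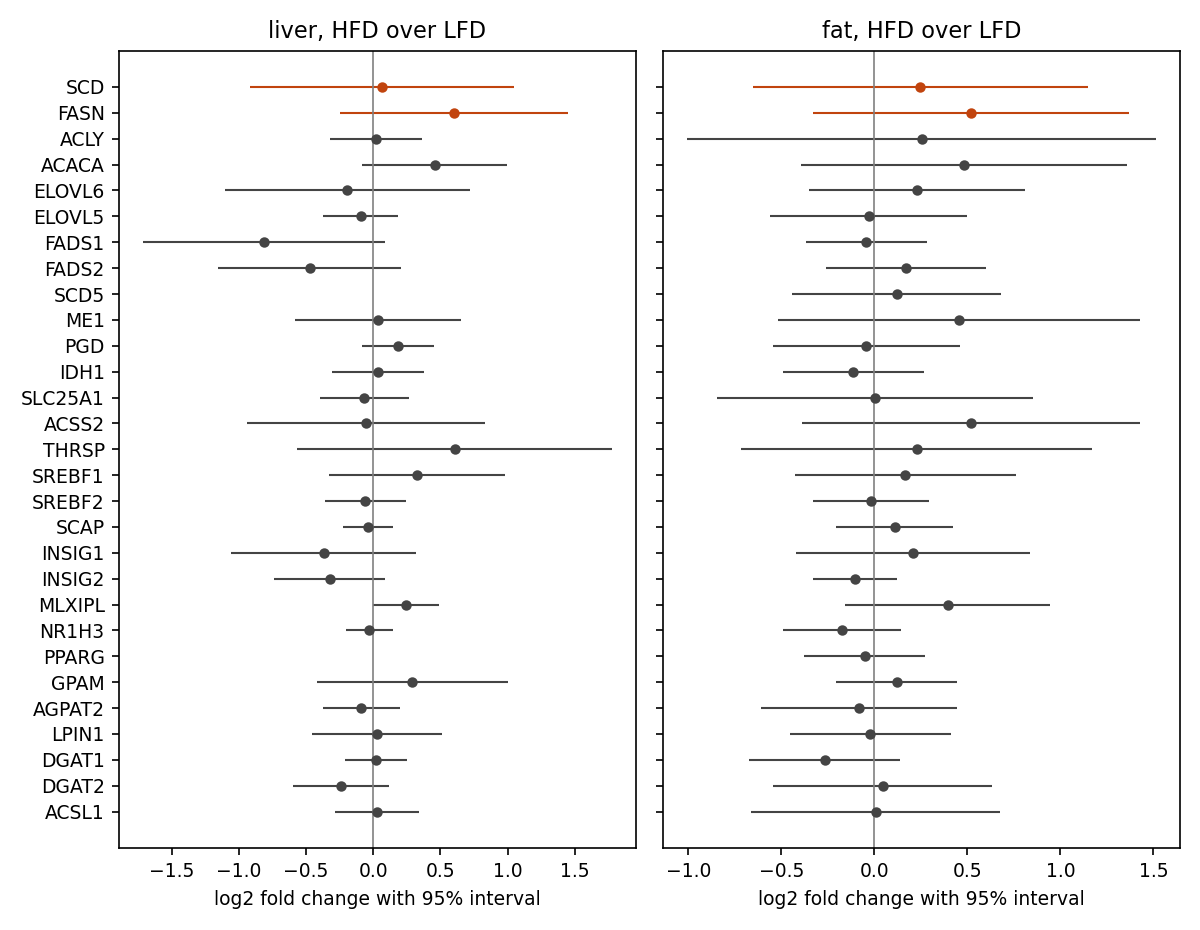
Log2 fold change of HFD over LFD with its 95% interval from edgeR for SCD and FASN (red) and listed genes of fatty acid and triglyceride synthesis (grey), in liver (left) and fat (right). The intervals of SCD and FASN, -0.92 to 1.05 and -0.25 to 1.45 in liver, include 0 in both tissues, and they are wider than those of most listed genes in liver.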

How the data were processed

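RNA from 16 liver and 16 fat libraries was sequenced as paired ends after TruSeq preparation. The authors deposited counts of reads per gene without normalization. STAR, RSEM, DESeq2 and Sscrofa11.1 are named in the submitters' processing notes, and the deposited values are whole numbers. The 2 runs of each liver library were summed, and all 48 columns were used. Groups came from the sample labels, whose fat content values are filed under shear force. Symbols were paired with 15029 of the 31908 identifiers through a reference table.

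HFD and LFD libraries of a tissue were compared in edgeR 4.0.16 (R 4.3.3; filterByExpr, TMM, robust quasi-likelihood test, Benjamini-Hochberg adjustment over all genes tested), and tissues and their interaction with fat group in 1 fit of 32 libraries. Ratios used counts plus 0.5, tested by exact permutation or, between tissues and for correlations over 16 libraries, by 100000 resamples. Correlations used log2 TMM CPM with a prior count of 1. Alternatives were DESeq2 1.42.0, limma-voom (limma 3.58.1), other scalings and filters, single runs, a replicate block and leaving out each library, and, chosen after seeing the data, leaving out the libraries that stood apart and the leave-one-out ranges of SREBF1 and SREBF2. The fits within each tissue, but not the fit of 32 libraries, were tried on simulated counts. These had the same dispersion for every gene and larger changes than SCD and FASN showed between HFD and LFD. They therefore do not bear on these genes. Genes named are SCD, FASN, the listed pathway and marker genes and the 3 most alike per enzyme and tissue, and 1 gene counted in the pathway list is not reported here. The members and lists were chosen with earlier results of these data known. Counting error is small beside the spread between libraries, as the lowest library held 2688 SCD counts. Figures used matplotlib 3.10.9.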

Additional observations from a re-analysis of the deposited data

Results flagged for a closer look

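FASN in liver HFD replicate 7 was 3405 TMM-scaled CPM, and the next highest HFD liver had 1815. On this CPM scale it lay farther from the other libraries of its group than Dixon's test allows at the 5% level. The same library had the highest SCD of all livers, 1482 CPM. Of 12 groups of 8 values tested in this way 1 stood out, where 0.6 would by chance.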

How the results depend on the processing

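The higher levels of both enzymes in fat, the higher ratio of SCD to FASN in fat and the correlation in each tissue kept their direction and their side of the threshold under every alternative run. For the correlation in fat the highest permutation p was 0.049. Within HFD fat alone r was 0.5004 (n = 8, exact permutation p = 0.197). Within LFD livers alone rho was 0.548 (n = 8, exact permutation p = 0.171). The log2 fold change between tissues ran from 4.45 to 5.20 for SCD and from 3.71 to 4.41 for FASN. Between HFD and LFD, SCD in liver ran from -0.18 to 0.22 when single libraries were left out, FASN in the comparison of the effect between tissues from -0.36 to 0.20, and SCD gave -0.026 in that comparison under total count scaling. The ratio of SCD to FASN, HFD against LFD, ran from -0.59 to -0.35 in liver and from -0.23 to 0.20 in fat, where it was 0.25 without HFD replicate 2 and LFD replicate 4. The cause was not tested. Genes past the threshold in liver were 5 with DESeq2, 1 with total count scaling, limma-voom or no low-count filter, and 0 to 5 with single libraries left out. In fat they were 50 with DESeq2, 1 with limma-voom, 1 without HFD replicate 2 and LFD replicate 4, and 0 to 2 with single libraries left out. For the difference between tissues in the effect they were 40 with DESeq2, 3 with total count scaling, 1 without the 3 libraries that stood apart, and 0 to 3 with single libraries left out. Between tissues 7349 genes passed with a minimum of 10 counts in every library, which tests fewer genes, against 11378.

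Within each group the replicate numbers follow the order in which its samples are listed. The labels do not say that a replicate number marks a shared batch. Deviations of same-numbered HFD and LFD libraries correlated between -0.09 and 0.08 in liver and between 0.02 and 0.25 in fat (mean 0.13, against -0.02 for other pairs), and 0 and 2 of 8 correlated best with their own number, so the numbers were not treated as pairs. With the replicate block the HFD over LFD log2 fold change was 0.11 for SCD and 0.58 for FASN in liver and 0.39 and 0.51 in fat, 0 genes passed in either tissue, and no call on SCD or FASN changed. For SCD and FASN the 95% intervals of HFD over LFD, given with each result, bound what these libraries could show.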
